A study of Mus musculus with 4 samples.

Results

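The genes described here are the granzymes Gzma, Gzmb, Gzmk and Gzmm, the pore protein gene Prf1 and the cathepsin W gene Ctsw, 6 of the 33696 genes in the files. They were chosen by name, with earlier results of these data known. They were followed in 3 classes of peritoneal leukocytes, CD8 T, other T and NK, from a high-fat diet library (HFD) and a chow library (CD). Wild-type mice were put on the diets at 4 weeks of age for 3 months, the cavity was lavaged, and CD45+ cells were sorted and sequenced in droplets. Each diet has 1 expression library and 1 B-cell receptor library. How many mice went into a library is not given by the labels, nor whether mice were pooled.

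Cytotoxic lymphocytes kill by releasing granules at the contact with a target cell. Perforin, encoded by Prf1, makes pores in the target membrane, and granzymes, which are serine proteases, enter and cleave proteins inside. Granzyme B cleaves after aspartate and can activate caspases, granzyme A is a tryptase-like enzyme, granzyme K is a related tryptase typical of memory-type T cells, and granzyme M cleaves after methionine or leucine. Cathepsin W is a cysteine protease made mainly by NK cells and CD8 T cells, and its task in killing is not settled.

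The classes were set by counts of unique molecular identifiers (UMIs, 1 per captured RNA molecule) in barcodes with no B-cell receptor contig and with Cd79a and Ms4a1 at 0. CD8 T barcodes had at least 1 UMI of Cd8a or Cd8b1 and at least 1 of the CD3 genes, and numbered 143 in HFD and 97 in CD. Other T barcodes had at least 2 UMIs of the CD3 genes and none of Cd8a or Cd8b1, and numbered 264 in HFD and 282 in CD. NK barcodes had at least 2 UMIs over Ncr1 and Klrb1c and no more than 1 of CD3, and numbered 24 in HFD and 14 in CD. Levels are given in CPM, UMIs per 1000000 UMIs of the summed class. Of NK markers that the rule did not use, Klre1 was at 871 CPM in HFD and 470 CPM in CD in the NK class, Eomes at 356 CPM in HFD and 224 CPM in CD, and Tbx21 at 270 CPM in HFD and 246 CPM in CD. The median barcode held 5500 UMIs in HFD and 4524 in CD for CD8 T, 4792 in HFD and 3707 in CD for other T, and 3278 in HFD and 3067 in CD for NK. Of the barcodes in the classes, 1 of 431 in HFD and 4 of 393 in CD share a barcode with the other library. Because a diet is a single library, the diets cannot be tested against each other. Every interval below is a 95% interval for counting error alone and does not cover the spread between mice.

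Gzma and Gzmk are neighbours on chromosome 13, with 1 annotated gene between them, and yet their RNA lay in different classes. Gzmb is on chromosome 14, Gzmm and Prf1 are on chromosome 10 and Ctsw is on chromosome 19. The 250 bases before the start of Gzma, Gzmk and Gzmb are shown for the neighbours with different classes, Gzma and Gzmk, and for Gzmb, which was found beside Gzmk in CD8 T barcodes. They come from RefSeq for GRCm38.p6, an older build than that of the files, and lie on the minus strand at chr13:113100982-113101231, chr13:113180966-113181215 and chr14:56262335-56262584. Capitals mark matches to the letters TGTGGT of the Runx motif or GGTGTGA of the T-box motif, searched on both strands.
Gzma: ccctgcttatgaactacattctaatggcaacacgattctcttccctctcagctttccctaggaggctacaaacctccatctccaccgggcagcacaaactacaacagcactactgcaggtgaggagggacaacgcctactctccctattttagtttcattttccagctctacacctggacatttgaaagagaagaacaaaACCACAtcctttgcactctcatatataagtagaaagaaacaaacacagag
Gzmk: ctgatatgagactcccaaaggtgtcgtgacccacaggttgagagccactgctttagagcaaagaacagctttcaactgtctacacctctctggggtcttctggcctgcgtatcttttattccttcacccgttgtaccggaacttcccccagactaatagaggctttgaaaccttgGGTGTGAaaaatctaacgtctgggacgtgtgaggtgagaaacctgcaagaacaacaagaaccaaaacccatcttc
Gzmb: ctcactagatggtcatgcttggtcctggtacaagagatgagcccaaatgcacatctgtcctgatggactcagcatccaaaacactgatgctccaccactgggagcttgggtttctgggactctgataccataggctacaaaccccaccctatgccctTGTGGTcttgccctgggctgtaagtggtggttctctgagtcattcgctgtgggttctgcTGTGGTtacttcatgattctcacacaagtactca
The Gzma window holds the Runx letters once, on the reverse strand, beginning 50 bases before the start. The Gzmb window holds them at 93 and 34 bases before the start, and the Gzmk window holds the T-box letters at 75 bases. A match is a description of letters and not a binding site. Of 32851 RefSeq promoter windows of this length, 14.0% hold the Runx letters and 3.33% the T-box letters. The ETS letters AGGAAGT, held by 7.69% of them, were in 0 of these 3 windows. The Prf1 window, not printed, holds the ETS letters at 198 and 109 bases and the Runx letters at 130, and the windows of the 2 Gzmm starts hold the Runx letters at 247 bases in one and the T-box letters at 189 in the other. The motifs were picked after the sequences had been seen. Windows for 5 of the 6 genes were matched; Ctsw was not.

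Gzma had its highest level in the NK class, and was higher there in HFD. It gave 313 UMIs in 24 HFD barcodes, or 3840 CPM (3426 to 4290), and 30 UMIs in 14 CD barcodes, or 672 CPM (453 to 959). The log2 ratio of HFD over CD was 2.52 (1.97 to 3.11). Gzma was found in 21 of 24 HFD barcodes, 87.5% (67.6 to 97.3), and in 5 of 14 CD barcodes, 35.7% (12.8 to 64.9). The intervals of level and of detection do not overlap between the diets. With each barcode thinned to 2000 UMIs, which left 18 HFD and 12 CD barcodes, detection was 88.9% in HFD and 25.0% in CD. The median NK barcode held 7 Gzma UMIs in HFD and 0 in CD, and the highest held 52 in HFD and 12 in CD.

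The NK classes of the libraries also differed in some innate lymphoid markers, but not in all that were looked at. Il7r, the interleukin-7 receptor gene of innate lymphoid and resting T cells, was at 49.1 CPM in HFD and 560 CPM in CD. Rora was at 49.1 CPM in HFD and 179 CPM in CD. Gata3 was at 110 CPM in HFD and 112 CPM in CD, and Il1rl1 and Areg gave 0 UMIs in both. Il7r UMIs were in 1 of 24 HFD and 7 of 14 CD barcodes of the class. Among NK barcodes without Il7r, Gzma was at 4068 CPM (3630 to 4544; 23 barcodes) in HFD and 1792 CPM (1200 to 2573; 7 barcodes) in CD, a log2 ratio of 1.18. Among those with Il7r it gave 0 UMIs in the HFD barcode and 1 UMI in the 7 CD barcodes. The summed macrophage markers stood at 1423 CPM in HFD and 672 CPM in CD in this class, with 5 of 8 detected in each, and their part in the result was not tested; with the barcodes of 3 or more macrophage UMIs left out, the Gzma log2 ratio was 2.15 over 7 HFD and 8 CD barcodes. In T cells Gzma was scarce. It gave 2 UMIs in CD8 T barcodes of HFD and 4 in those of CD, and 1 UMI in other T barcodes of each. Barcodes with a receptor contig, which are B cells and should lack these genes, held it in 0.490% of 3677 HFD and 0.323% of 7112 CD barcodes, at medians of 5983 UMIs in HFD and 4628 in CD.

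**Figure D1:**
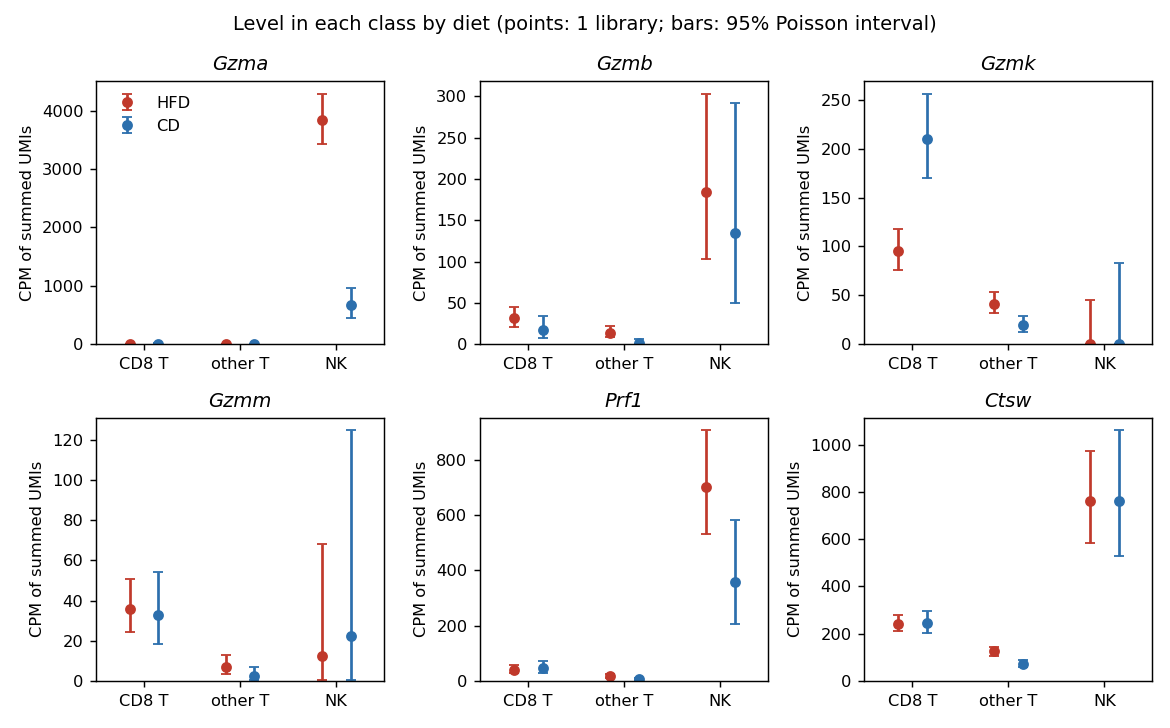
CPM of the summed UMIs of each gene (vertical axes, linear and different for each gene) in CD8 T, other T and NK barcodes, with HFD in red to the left and CD in blue; each point is 1 library and each bar its 95% Poisson interval. Gzma stands at 3840 CPM in HFD NK barcodes and 672 CPM in CD NK barcodes, and Gzmk at 95.1 CPM in HFD and 210.0 CPM in CD in CD8 T barcodes.

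Prf1 was higher in HFD in the NK class as a whole, but not in its barcodes without Il7r. It gave 57 UMIs, 699 CPM (530 to 906), in HFD NK barcodes and 16 UMIs, 358 CPM (205 to 582), in CD NK barcodes, a log2 ratio of 0.97 (0.14 to 1.86). It was found in 83.3% of HFD and 57.1% of CD barcodes. Without the Il7r barcodes the level was 741 CPM in HFD and 741 CPM in CD, so no difference between diets was detectable there. Ctsw in NK barcodes was at 761 CPM in HFD and 761 CPM in CD, log2 ratio -0.00 (-0.63 to 0.65), and was found in 83.3% of HFD and 92.9% of CD barcodes. In CD it was found in all 7 Il7r barcodes, at 702 CPM. Gzmb gave 15 UMIs in HFD and 6 in CD, log2 ratio 0.45 (-0.99 to 2.11), and Gzmm 1 UMI in each. Gzmk gave 0 UMIs in the NK class of both libraries, which allows a level of up to 36.8 CPM in HFD and 67.2 CPM in CD at 3 counts. Of the 4 genes with 20 or more UMIs over both diets in NK barcodes, 1 was higher by 2-fold or more in HFD. Of all 994 genes measured that way, 9.26% were higher and 3.22% lower, 12.5% in all, and the median log2 ratio was 0.71 for the 4 and 0.03 for all. That 1 of 4 is Gzma; the class holds too few barcodes for a share to be read against the background.

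Gzmk marked a part of the CD8 T class and had the lower level in HFD. It gave 85 UMIs, 95.1 CPM (76.0 to 118), in HFD and 96 UMIs, 210.0 CPM (170.1 to 256), in CD, a log2 ratio of -1.14 (-1.58 to -0.71). The share of barcodes with Gzmk differed less than its level: 24 of 143 in HFD, 16.8% (11.1 to 23.9), and 20 of 97 in CD, 20.6% (13.1 to 30.0), with overlapping intervals. Barcodes that held it had on average 3.54 UMIs in HFD and 4.80 in CD. A single HFD barcode held 26 UMIs, 30.6% of the HFD count, and a single CD barcode 16, or 16.7%; with the top barcode of each diet left out, the log2 ratio was -1.42. After thinning, Gzmk was found in 10.4% of HFD and 15.1% of CD barcodes. B-cell barcodes held it in 0.354% in HFD and 0.267% in CD. The summed macrophage markers were at 5003 CPM in HFD and 6963 CPM in CD in these barcodes, all 8 detected in each. Without barcodes of 3 or more macrophage UMIs the Gzmk ratio was -1.64, over only 29 of 143 HFD and 38 of 97 CD barcodes. The B-cell markers were at 1440 CPM in HFD and 2721 CPM in CD, 4 of 6 detected in each with Cd79a and Ms4a1 at 0 by the rule, and the cycling markers at 75.0 CPM in HFD and 24.1 CPM in CD, with 4 of 4 detected in HFD and 3 in CD. Their part in the result was not tested beyond the ratio of -1.88 with up to 2 Cd79a and Ms4a1 UMIs allowed.

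All Gzmk UMIs of the CD8 T class were in memory-type barcodes, those with at least 2 UMIs over Ccl5, Cxcr3, Il2rb and Eomes. These were 94 of 143 in HFD, 65.7% (57.3 to 73.5), and 69 of 97 in CD, 71.1% (61.0 to 79.9). In them Gzmk was at 138 CPM in HFD and 297 CPM in CD, log2 ratio -1.11 (-1.55 to -0.67). In the remaining 49 HFD and 28 CD barcodes it gave 0 UMIs, and Gzma also gave 0. Ctsw was not limited in that way: it was at 306 CPM in HFD and 294 CPM in CD in memory-type barcodes, and at 101 CPM in HFD and 127 CPM in CD in the remaining ones. Gzmm was at 51.9 CPM in HFD and 43.3 CPM in CD in memory-type barcodes, with 0 UMIs in the rest in HFD and 1 in CD.

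For the other members with enough UMIs in CD8 T barcodes, the interval of the log2 ratio included 0. Ctsw gave 217 UMIs, 243 CPM (212 to 277), in HFD and 112 UMIs, 245 CPM (202 to 295), in CD, log2 ratio -0.01 (-0.35 to 0.33). It was found in 60.1% of HFD and 57.7% of CD barcodes. Prf1 was at 40.3 CPM in HFD and 45.9 CPM in CD, log2 ratio -0.19 (-1.01 to 0.66), and Gzmm at 35.8 CPM in HFD and 32.8 CPM in CD, log2 ratio 0.13 (-0.80 to 1.12). Gzmb gave 28 UMIs, 31.3 CPM (20.8 to 45.3), in HFD and 8 UMIs, 17.5 CPM (7.56 to 34.5), in CD, log2 ratio 0.84 (-0.33 to 2.18). Gzmb was found in 9.09% of HFD and 4.12% of CD barcodes, and its ratio passed 2-fold in 4 of 13 settings. The intervals of Prf1, Gzmm and Gzmb also include a 2-fold difference, so equality is not shown. Of the 5 members with 20 or more UMIs, 1 was lower by 2-fold or more in HFD and 0 higher. Of all 6510 genes, 3.2% were lower and 4.09% higher by that much, 7.28% in all. The median log2 ratio was -0.01 for the 5 members and -0.01 for all genes.

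**Figure D2:**
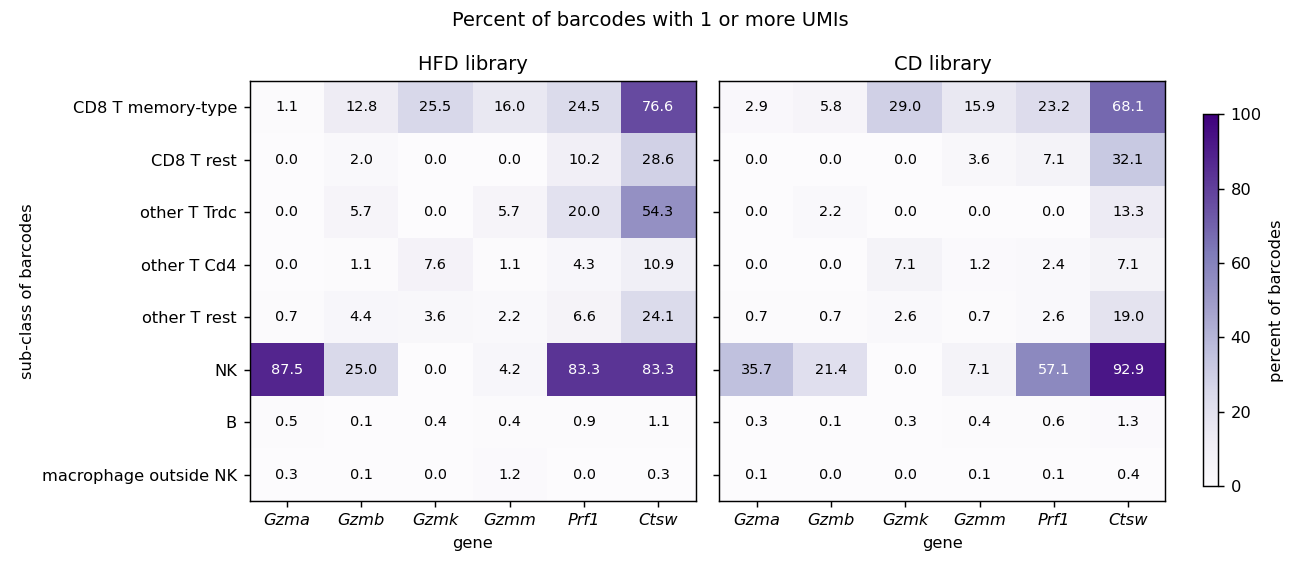
Percent of barcodes with 1 or more UMIs of each gene (columns) in each sub-class of barcodes (rows), HFD on the left and CD on the right, with darker purple for a higher percent. Gzmk stands at 25.5% in HFD and 29.0% in CD memory-type CD8 T barcodes and at 0 in NK barcodes, while Gzma stands at 87.5% in HFD and 35.7% in CD NK barcodes.

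T cells without Cd8a and Cd8b1 held little of these genes, and more of most of them in HFD. Gzmb gave 20 UMIs, 14.1 CPM (8.59 to 21.7), in HFD and 2 UMIs, 1.61 CPM (0.195 to 5.82), in CD, log2 ratio 3.12 (1.08 to 6.27). It was found in 9 of 264 HFD and 2 of 282 CD barcodes, and 1 HFD barcode held 8 of the 20 UMIs. Prf1 gave 26 UMIs, 18.3 CPM (11.9 to 26.8), in HFD and 7 UMIs, 5.64 CPM (2.27 to 11.6), in CD, log2 ratio 1.70 (0.45 to 3.14). Prf1 UMIs were in 20 HFD and 6 CD barcodes. Ctsw was at 125 CPM (107 to 145) in HFD and 72.5 CPM (58.3 to 89.1) in CD, log2 ratio 0.79 (0.41 to 1.17), and was found in 23.5% of HFD and 14.5% of CD barcodes. Gzmm gave 10 UMIs in HFD and 3 in CD. B-cell barcodes held Prf1 in 0.925% in HFD and 0.591% in CD and Ctsw in 1.09% in HFD and 1.35% in CD. They held Gzmb in 0.136% in HFD and 0.0703% in CD and Gzmm in 0.408% in HFD and 0.394% in CD.

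Gzmk had opposite directions in the T classes. In other T barcodes it gave 59 UMIs, 41.5 CPM (31.6 to 53.5), in HFD and 24 UMIs, 19.3 CPM (12.4 to 28.8), in CD, log2 ratio 1.10 (0.39 to 1.85). It was found in 12 of 264 HFD barcodes, 4.55%, and 10 of 282 CD barcodes, 3.55%, with overlapping intervals, and 1 HFD barcode held 28 of the 59 UMIs. With the top barcode of each diet left out the ratio was 0.85, and with barcodes of 3 or more macrophage UMIs left out it was -0.10 over 41 HFD and 104 CD barcodes. Of the 4 members with 20 or more UMIs, 3 were higher in HFD by 2-fold or more and 4 were above 0. Of all 8842 genes, 2.73% were higher and 3.42% lower by 2-fold or more, 6.14% in all. The median log2 ratio of the 4 members was 1.40, and that of all genes was -0.01. Gzmb and Prf1, both among the 3, met the minimum through HFD, with 20 and 26 UMIs there and 2 and 7 in CD. Their inclusion and their call therefore rest on the same counts, so the 3 of 4 is a description only. In this class the summed macrophage markers were at 4830 CPM in HFD and 10355 CPM in CD, all 8 detected in each, and the gamma-delta T markers at 229 CPM in HFD and 395 CPM in CD. The NK markers were at 388 CPM in HFD and 216 CPM in CD, all 7 detected in each, with Ncr1 at 18.3 CPM in HFD and 1.61 CPM in CD and Klrb1c at 45.7 CPM in HFD and 11.3 CPM in CD. Without barcodes holding Ncr1 or Klrb1c, which left 243 in HFD and 272 in CD, the log2 ratio was 2.08 for Gzmb, 1.91 for Prf1, 1.21 for Gzmk and 0.35 for Ctsw. The cycling markers were at 65.4 CPM in HFD and 23.4 CPM in CD, and their part, like that of the gamma-delta T markers, was not tested.

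The members lay in different kinds of these T cells. Of the Gzmk UMIs, 49 of 59 in HFD and 20 of 24 in CD were in barcodes with Cd4 and no Trdc, at 88.8 CPM in HFD and 42.3 CPM in CD. They were held by 7 of 92 such HFD barcodes and 6 of 84 such CD barcodes. A single HFD barcode held 28 of these 49 UMIs and a single CD barcode 9 of 20; without them the level was 38.6 CPM (23.9 to 59.0) in HFD and 23.5 CPM (11.7 to 42.0) in CD, with overlapping intervals. Barcodes with Trdc, the delta chain constant gene of gamma-delta T cells, held 0 Gzmk UMIs in both libraries. Trdc was also seen in the NK class, at 85.9 CPM in HFD and 0 in CD. Whether NK-like cells are among the Trdc barcodes of other T was not tested. Ctsw showed its largest difference in the Trdc barcodes of other T. It gave 74 UMIs, 358 CPM (281 to 450), in 35 HFD barcodes and 15 UMIs, 86.5 CPM (48.4 to 143), in 45 CD barcodes, log2 ratio 2.05 (1.24 to 2.96). It was found in 54.3% (36.6 to 71.2) of them in HFD and 13.3% (5.05 to 26.8) in CD, and neither pair of intervals overlaps. Prf1 gave 11 UMIs in 7 of the HFD Trdc barcodes and 0 in CD. The level was 53.3 CPM (26.6 to 95.3) in HFD and 0 CPM (0 to 21.3) in CD. With CD set to 3 counts it was 3.08-fold higher in HFD, a value that leaves out the counting error of HFD. A single HFD barcode held 5 of the 11 UMIs. After thinning, Prf1 was found in 1 of 34 HFD and 0 of 39 CD Trdc barcodes. In Cd4 barcodes Ctsw was at 27.2 CPM in HFD and 29.6 CPM in CD. The remaining barcodes, with neither Trdc nor Cd4, held 14 of the 20 HFD Gzmb UMIs and 1 of the 2 in CD.

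**Figure D3:**
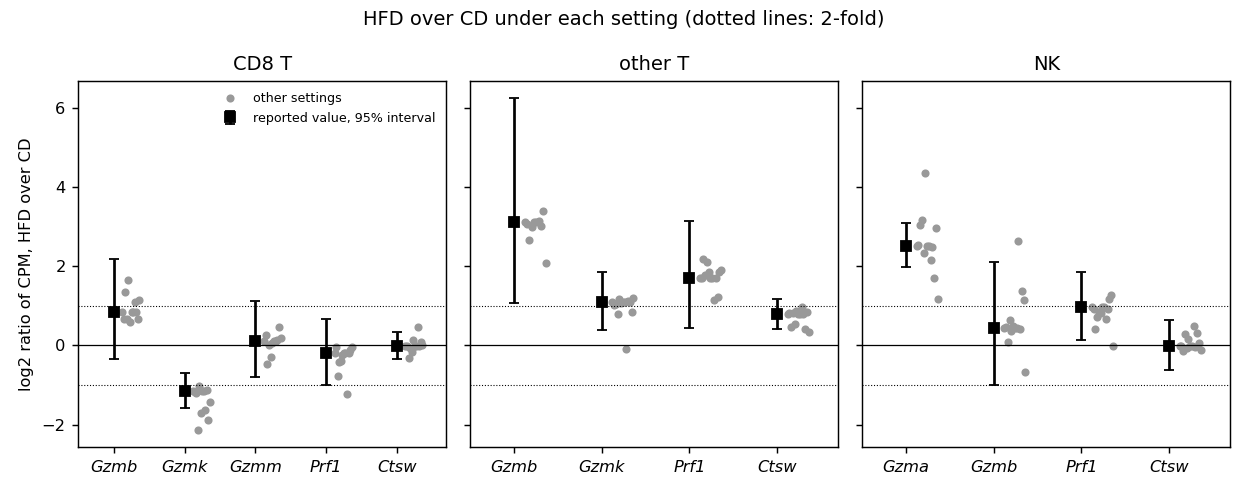
Log2 ratio of CPM, HFD over CD, for each gene with 20 or more UMIs over both diets in a class; black squares are the reported values with 95% intervals and grey points the same ratio under each other setting. Gzma in NK barcodes lies above the dotted 2-fold line and Gzmk in CD8 T barcodes below it under every setting drawn, while Gzmk in other T barcodes reaches -0.10 under 1 setting.

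Within single CD8 T barcodes, Gzmb and Gzmk were found together more often than their separate shares would give. Of 13 HFD CD8 T barcodes with Gzmb, 9 also had Gzmk, where the product of the separate shares would give 2.18; in CD it was 4 of 4, against 0.825. Gzmk and Prf1 were found together in 12 HFD barcodes, against 4.70 for independent shares, and in 9 CD barcodes, against 3.71. Gzmk and Gzmm were together in 4 HFD barcodes, against 2.52, and in 7 CD barcodes, against 2.47. All 15 HFD barcodes with Gzmm held Ctsw, against 9.02 for independent shares, and 6 of 12 in CD, against 6.93. After thinning to 2000 UMIs, Gzmb and Gzmk were together in 5 HFD barcodes, against 0.726, and in 2 CD barcodes, against 0.302. At that depth the other pairs lay closer to independent shares in HFD: Gzmk and Prf1 in 2 barcodes, against 1.14, Gzmk and Gzmm in 1, against 0.622, and Gzmm and Ctsw in 2, against 1.78. In CD, Gzmk and Prf1 were together in 5 thinned barcodes, against 1.51, Gzmk and Gzmm in 2, against 1.06, and Gzmm and Ctsw in 3, against 2.52. In other T barcodes Gzmb and Gzmk were together in 0 of either library, against 0.409 in HFD and 0.0709 in CD, too few to read. In NK barcodes Gzma and Prf1 were together in 18 HFD barcodes, against 17.5, and in 5 CD barcodes, against 2.86. These are counts within a library; deeper barcodes show more genes, and barcodes with Ctsw in CD8 T had a median of 6636 UMIs in HFD and 4612 in CD, against 4594 in HFD and 3908 in CD without it.

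At least 2 of the 6 members were found in 30.8% of HFD and 28.9% of CD barcodes in CD8 T, in 7.58% of HFD and 3.19% of CD barcodes in other T, and in 91.7% of HFD and 71.4% of CD barcodes in NK. After thinning to 2000 UMIs the shares were 12.6% in HFD and 16.3% in CD for CD8 T, 2.46% in HFD and 0% in CD for other T, and 83.3% in HFD and 58.3% in CD for NK. In CD8 T the HFD share was the higher before thinning and the lower after it.

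**Figure D4:**
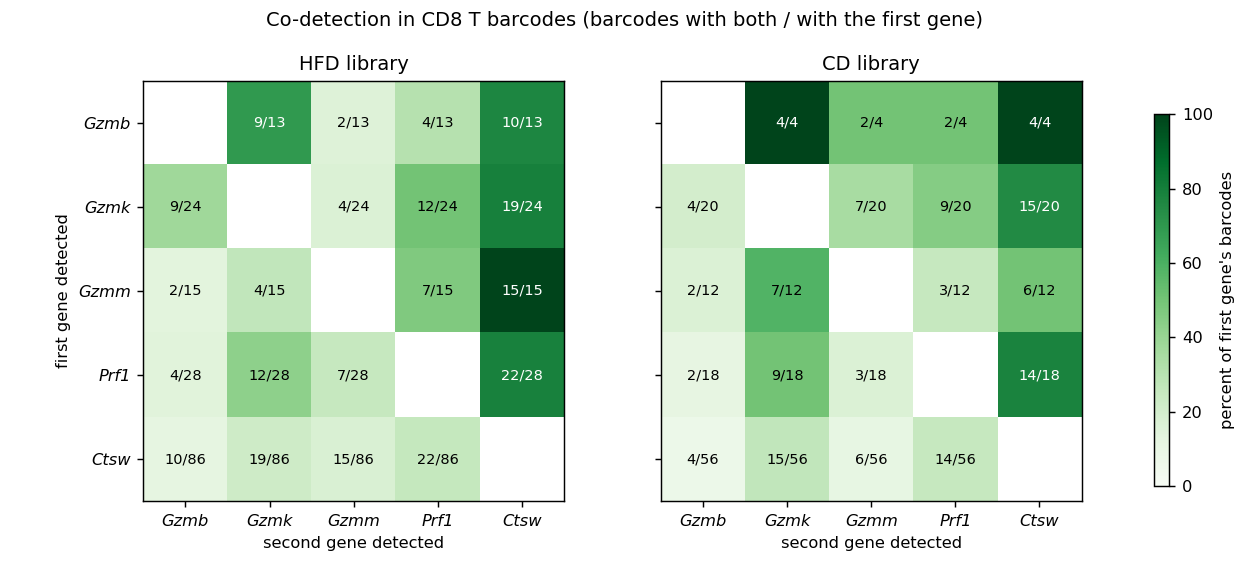
Co-detection in CD8 T barcodes, HFD on the left and CD on the right: each square gives the number of barcodes with both genes over the number with the gene of its row, and darker green means a higher percent. Of barcodes with Gzmb, 9 of 13 in HFD and 4 of 4 in CD also held Gzmk.

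CD8 T barcodes with Gzmk had higher levels of several memory-type genes than those without it in both libraries. Ccl5, a chemokine stored by memory T cells, was at 18981 CPM with Gzmk and 4215 CPM without it in HFD, and at 23493 CPM with it and 4317 CPM without it in CD. Eomes, a T-box factor of memory and NK cells, was at 142 CPM with Gzmk and 44.3 CPM without it in HFD, and at 219.9 CPM with it and 13.3 CPM without it in CD. Nkg7, a granule membrane protein, was at 2469 CPM with Gzmk and 713 CPM without it in HFD, and at 2785 CPM with it and 786 CPM without it in CD. Ccl5 and Eomes also set the memory-type split, but not the split by Gzmk. Barcodes without Gzmk include all those outside the memory-type set, and no comparison within memory-type barcodes was made. Some other genes were not higher with Gzmk. In HFD, Zeb2 was at 23.7 CPM with it and 67.8 CPM without it, and Tcf7 at 277 CPM with it and 293 CPM without it. Klrg1, an inhibitory receptor of terminally differentiated effector cells, was at 47.5 CPM with Gzmk in HFD and 257 CPM with Gzmk in CD, and at 0 in HFD and 2.66 CPM in CD without it.

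The pathway around the granules was read from 8 gene lists. The 10 granule partners, which pack, sort or inhibit granule proteins, had a median log2 ratio of -0.25 in CD8 T barcodes (7 measured, 1 above 0, 0 past 2-fold), -0.16 in other T (10 measured, 1 higher and 2 lower by 2-fold or more) and 0.14 in NK (4 measured, 0 past 2-fold). Nkg7 was at 961 CPM in HFD and 1144 CPM in CD in CD8 T barcodes, and at 422 CPM in HFD and 201 CPM in CD in other T. In other T barcodes Cd63, a lysosome membrane protein that macrophages also make, gave 3 UMIs in HFD and 21 in CD, and Serpinb6b, a protease inhibitor, 8 in HFD and 16 in CD. The exocytosis genes, which dock and fuse the granules, had medians of -0.04 in CD8 T (8 measured, 1 lower by 2-fold or more) and 0.01 in other T (9 measured, 0 past 2-fold), and only Coro1a was measured in NK. The 1 past 2-fold was Rab27a, a granule docking GTPase, with 13 UMIs in HFD and 18 in CD, log2 ratio -1.44 (-2.59 to -0.33). The 6 other granzymes, Gzmc, Gzmd, Gzme, Gzmf, Gzmg and Gzmn, reached 20 UMIs in none of the 3 classes.

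Killer cell receptors, chiefly lectin-like receptors of NK cells, were mostly higher in HFD outside the CD8 T class. In other T barcodes 8 of 10 measured were above 0 and 5 past 2-fold, median 0.78. Of all 8842 genes measured in that class, 4305 were above 0 and 2.73% past 2-fold in that direction. The NK genes Ncr1 and Klrb1c were also higher in HFD in other T barcodes, and their part in the receptor counts was not tested. Klra1 was at 38.7 CPM in HFD and 8.06 CPM in CD, log2 ratio 2.26 (1.28 to 3.40), and Klre1 at 42.9 CPM in HFD and 13.7 CPM in CD, 1.65 (0.85 to 2.52). In NK barcodes 8 of 8 were above 0 and 3 past 2-fold, median 0.73. Of all genes measured in NK barcodes, 522 of 994 were above 0 and 9.26% past 2-fold in that direction. Without the Il7r barcodes 5 of the 8 receptors were above 0 and 3 past 2-fold, median 0.35. Klra8, the Ly49H receptor gene, gave 52 UMIs in HFD and 4 in CD, 2.83 (1.39 to 4.76), and 1.45 (0.01 to 3.38) without the Il7r barcodes. In CD8 T barcodes 3 of 9 were above 0, 2 were lower by 2-fold or more, and the median was -0.15. Klrg1 gave 6 UMIs in HFD and 22 in CD, log2 ratio -2.84 (-4.43 to -1.50), the same sign as Gzmk in that class, and Klrc2 gave 10 UMIs in HFD and 11 in CD, -1.11 (-2.50 to 0.27).

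Of the other effector molecules, the chemokines Xcl1, Ccl3 and Ccl4 were higher in HFD in NK barcodes. In NK barcodes Xcl1 gave 168 UMIs in HFD and 22 in CD, log2 ratio 2.07 (1.42 to 2.78), and Ccl4 gave 73 in HFD and 2 in CD, 4.32 (2.42 to 7.39). Ccl3 gave 21 UMIs in HFD and 0 in CD. With CD set to 3 counts it was 3.84-fold higher in HFD, a value that leaves out the counting error of HFD. With Ccl3 at that value, 3 of the 4 measured were past 2-fold. Without the Il7r barcodes the log2 ratio was 1.68 (0.80 to 2.71) for Xcl1 and 2.94 (1.04 to 6.01) for Ccl4, and Ccl3 still gave 0 UMIs in CD. Ccl5 was at 12379 CPM in HFD and 13859 CPM in CD, log2 ratio -0.16. In other T barcodes Xcl1 was at 38.7 CPM in HFD and 11.3 CPM in CD, log2 ratio 1.78 (0.91 to 2.74). Ifng gave 21 UMIs in HFD and 7 in CD there, 1.39 (0.10 to 2.87). In that class 2 of 6 were past 2-fold, median 0.62, where 2.73% of all 8842 genes were higher by that much. In CD8 T barcodes 0 of 3 were past 2-fold, median 0.35.

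Among effector transcription factors, Tbx21, which encodes T-bet, gave 43 UMIs in HFD and 9 in CD in CD8 T barcodes, log2 ratio 1.29 (0.23 to 2.51), opposite in sign to Gzmk there. It was the 1 of 7 past 2-fold, and the median was -0.01. Eomes gave 25 UMIs in HFD and 8 in CD in other T barcodes, 1.45 (0.25 to 2.81), the 1 of 9 past 2-fold with a median of 0.01. In NK barcodes 0 of 5 were past 2-fold, median 0.07. Cytokine receptors had medians of 0.31 in CD8 T (0 of 5 past 2-fold), -0.07 in other T (1 of 7, Il12rb2) and -0.07 in NK (0 of 5). Naive T genes had medians of 0.12 in CD8 T (0 of 10 past 2-fold), 0.50 in other T (1 of 10, Igfbp4, 1.23) and 0.95 in NK (2 of 4). In NK these include Bach2, with 18 UMIs in HFD and 2 in CD, log2 ratio 2.30 (0.24 to 5.45).

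**Figure D5:**
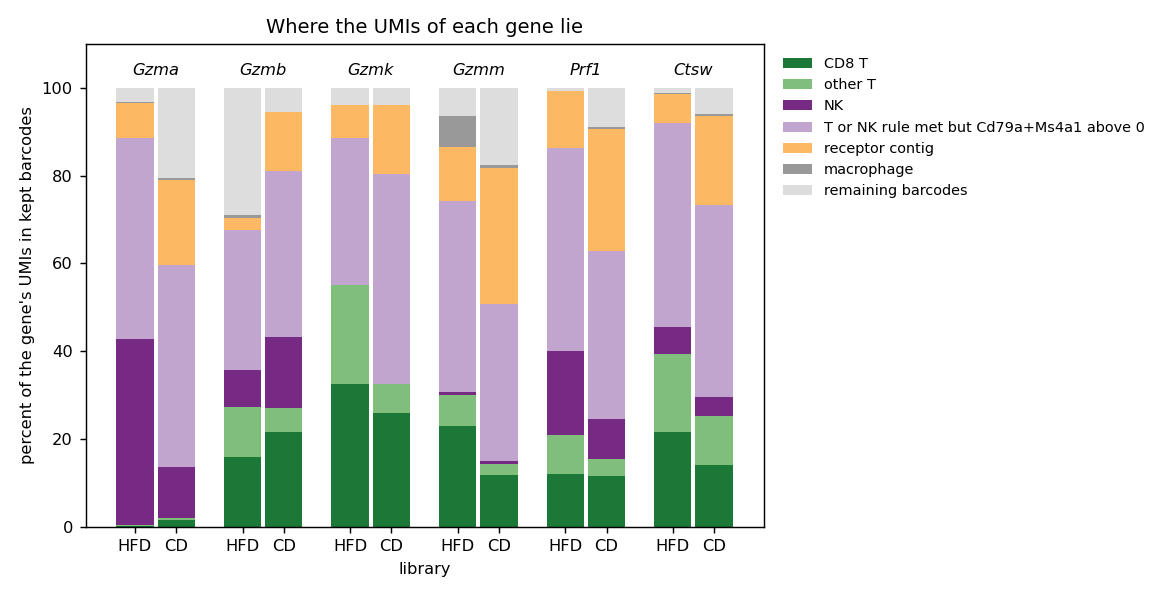
Share of each gene's UMIs in kept barcodes (vertical axis, percent, bars from 0 to 100) by the kind of barcode that held them, with HFD left of CD for each gene. The pale purple part, barcodes that meet a T or NK rule but hold Cd79a or Ms4a1 UMIs, takes 45.7% of Gzma UMIs in HFD and 45.9% in CD.

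The class rule left out many barcodes with these genes. Barcodes that met a T or NK rule but held Cd79a or Ms4a1 UMIs numbered 451 in HFD and 773 in CD. They carried between 31.8% (Gzmb) and 46.4% (Ctsw) of the members' UMIs in HFD and between 35.7% (Gzmm) and 48.0% (Gzmk) in CD. With up to 2 such UMIs allowed, CD8 T grew to 262 HFD and 188 CD barcodes and Gzmk was at 58.6 CPM in HFD and 215 CPM in CD, a log2 ratio of -1.88. NK grew to 43 HFD and 29 CD barcodes and Gzma was at 3838 CPM in HFD and 1173 CPM in CD, a log2 ratio of 1.71. Macrophage barcodes outside the NK class held Gzma in 0.270% of 740 in HFD and 0.118% of 848 in CD.

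The pattern of each gene was compared with that of every other gene over 16 points, the 8 sub-classes of barcodes in 2 libraries, by Pearson's r of log2(CPM + 10). The points share libraries and depth, so r is a description. Eomes helped set the memory-type split, so its pattern over the CD8 T sub-classes is partly fixed by that rule. The HFD macrophage sub-class, 745 barcodes here, also held NK barcodes and numbered 740 without them. Gzma was at 5.14 CPM in the 745 and 0.181 CPM in the 740. Gzmb was most like Xcl1 (r = 0.97), Eomes (0.96), Klre1 (0.96), Samd3 (0.95) and Tbx21 (0.95). Ctsw was most like Cd7 (0.97), Klrd1 (0.96), Nkg7 (0.96), Ly6c2 (0.95) and Epsti1 (0.95). Prf1 was most like Gm41790 (0.95), Gzmb (0.94), Klra9 (0.93), Gm36496 (0.93) and Xcl1 (0.92). Gzma was most like a gene that the files list by identifier alone (0.99), Klra4 (0.99), Klri2 (0.98), Chit1 (0.98) and Kcnip3 (0.97). The genes nearest to Gzmk (Gm35037 at 0.96, Zfp11 at 0.90, Wdr38, D330041H03Rik and Gm56847) and to Gzmm (Lpin1 at 0.85, Fgf13, Ube2h, Ly6c2 and Wdr95) include several with few UMIs. Over the T and NK sub-classes of both libraries, the 5 nearest to Gzmk had 7 to 49 UMIs each, those nearest to Gzma 3 to 107 and those nearest to Prf1 18 to 325. Among the members, Gzma and Prf1 had r = 0.87, Gzmb and Gzmk 0.11, and the neighbours Gzma and Gzmk -0.18.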

How the data were processed

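The expression files hold deposited UMI counts per gene and barcode, with no normalization, written by Cell Ranger 8.0.1 per the file headers; the tools listed in the submitters' processing notes are Seurat 4.3.0 and Cell Ranger 6.0.1, with build mm39. Settings of cell calling and any filter are not given in the sources used here. A treatment note in the labels puts both groups on the high-fat diet; groups follow the sample titles and the series design. The HFD library holds 57630074 UMIs in 6897 barcodes and the CD library 73549582 in 13227.

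A barcode was kept if it had 300 or more genes and no more than 10% mitochondrial UMIs, which left 6684 in HFD and 13069 in CD. The deposited receptor tables, with counts of UMIs and reads per contig, served only to mark barcodes with a contig. Doublets were not called, and barcodes of mixed content remain. UMIs were summed per class and library and given as CPM with exact Poisson intervals; ratios have the exact conditional interval for 2 Poisson counts, and shares have exact Clopper-Pearson intervals. The ratio and its interval were checked on simulated Poisson counts for the other T class, which do not model UMIs clumped in single barcodes. Thinning was checked only for its totals, and the class rules and co-detection were not checked. A gene counts as past 2-fold at 20 or more UMIs over both diets and an absolute log2 ratio of 1 or more; genes at 0 in a diet count too. Named genes are the 6 members, up to 4 genes per list with the largest ratio, and 5 genes of the most similar pattern. The values of 1 listed gene are not reported here. Members, lists and rules were chosen with earlier results of these data known. Alternatives covered barcode filters, thinning, weights, class limits, overlaps, contigs, macrophage RNA and scaling; 4 were added after the data were seen. Python 3.11.15, numpy 2.4.6, scipy 1.17.1 and pandas 2.3.3 were used.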

Additional observations from a re-analysis of the deposited data

Results flagged for a closer look

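Gzmk was lower in HFD in CD8 T barcodes and higher in HFD in other T barcodes, log2 ratios of -1.14 and 1.10, a difference of -2.24 between the classes. The difference was not tested, since each diet is 1 library. In other T, 1 HFD barcode held 28 of the 59 HFD Gzmk UMIs, and the detection intervals of the diets overlapped. Without barcodes of 3 or more macrophage UMIs the other T log2 ratio was -0.10.

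Gzmb gave 50 UMIs in 1 HFD barcode outside the 3 classes, 28.4% of the Gzmb UMIs of that library. The barcode held 15755 UMIs in all, 94 of the mast cell and basophil markers (62 of Cpa3, 19 of Cma1, 12 of Mcpt8 and 1 of Fcer1a), 50 of Cd79a and Ms4a1 together, and 0 of CD3, Ncr1 and Klrb1c. It was the 1 HFD barcode with 5 or more mast cell and basophil UMIs, and CD had 0.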

How the results depend on the processing

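Over 13 settings (14 in other T and NK), the reported one included, the log2 ratio of HFD over CD stayed past 2-fold in the same direction for Gzma in NK (1.18 to 4.37), Gzmk in CD8 T (-2.14 to -1.03) and Prf1 in other T (1.16 to 2.20), and for Gzmb in other T in the 11 settings that gave a value (2.08 to 3.39). Gzmk in other T reversed to -0.10 without barcodes of 3 or more macrophage UMIs; the cause was not tested. The number of members past 2-fold in CD8 T was 1 of 5 as reported. It became 2 of 5 after thinning to 2000 UMIs, with equal weight per barcode, and without the top barcode of each member. Without macrophage-positive barcodes it was 3 of 4, since Gzmm had no ratio there. In other T it was 1 of 3 with classes set on thinned counts and 1 of 3 without macrophage-positive barcodes, against 3 of 4 as reported. It was 2 of 3 after thinning with the classes kept and 2 of 4 without the top barcode. In the settings with 3 values Gzmb had no ratio and was left out. After thinning with the classes kept, Gzmb gave 6 UMIs in HFD and 0 in CD. Gzmk and Prf1 stayed past 2-fold in that setting, at 1.05 and 2.20. In NK it was 2 without macrophage-positive barcodes, 3 with up to 2 Cd79a or Ms4a1 UMIs and 3 without the top barcode, against 1. Of 160 ratios of single members under alternatives, 146 lay within the counting interval of the reported value, 13 lay outside it without reversing a 2-fold call, and 1 reversed. Some alternatives could barely change a ratio, so these counts do not measure robustness. Leaving out barcodes of 2 classes removed none, and allowing a contig only took other T in CD from 282 to 283 barcodes. With no minimum on UMIs, the share of genes past 2-fold was 32.9% in CD8 T, 29.4% in other T and 54.9% in NK. Gzmb in other T had 3 settings, and Gzmm in CD8 T 1, with 0 UMIs in a diet and thus no ratio. Without the Il7r barcodes, Gzmb in NK was at -0.66 and Prf1 at -0.00. Precision is limited by 1 library per diet and by few barcodes, 24 HFD and 14 CD in NK. No paired analysis was possible because each diet has 1 expression library.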
